A study of Homo sapiens with 4 samples.

Results

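The ING (inhibitor of growth) genes code for a small family of tumor suppressor proteins. Its 5 members, ING1, ING2, ING3, ING4 and ING5, were found by their gene name among the 14297 gene probes of the arrays, and each had 1 probe. The family was chosen by the raised ratio of ING3 between treated and control cells in these same arrays, so that ratio, and the number of members the fit calls, are given as a description only, with no p-value for a member. RNA of K562 human erythroleukemia cells, an established cell line, was measured on 4 two-colour Agilent arrays. One channel of each array held RNA of cells treated for 4 h with AC-1041, a thalidomide analog, and the other that of control cells kept for 4 h. The labels call the control cells untreated and give no dose. The methods name DMSO as the control and state a micromolar dose of AC-1041 for the gene expression cultures. RNA of treated cells was labelled with Cy5 for arrays 1 and 2 (the Cy5 arrays below) and, in a dye swap, with Cy3 for arrays 3 and 4 (the Cy3 arrays), and every ratio was turned to read treated over control.

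ING proteins are not enzymes. They carry a PHD finger, a zinc-binding fold at the C-terminal end that binds histone H3 methylated at lysine 4, a mark of active promoters, and so tie enzyme complexes to chromatin. ING1 and ING2 are subunits of the SIN3-HDAC complex, which removes acetyl groups from histones. ING3 belongs to the NuA4-TIP60 acetyltransferase complex, ING4 to the HBO1 acetyltransferase complex, and ING5 to the HBO1 and MOZ/MORF complexes. The family is known for growth arrest and apoptosis in response to stress.

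Each probe is a 60-base oligonucleotide, so each gene was read at a single place. In the positions of the files, on hg18, the probe of ING1 lies at chr13:110170119-110170178, that of ING2 at chr4:184668870-184668929, that of ING3 at chr7:120402497-120402556, that of ING4 at chr12:6630330-6630389 on the minus strand and that of ING5 at chr2:242313237-242313296. No hg18 annotation was used here, so exons are not given. The probes of ING1 and ING2 are shown because both reach into the stretch that codes for the PHD finger, the part that is alike among ING proteins and whose zinc is held by cysteine and histidine residues. Capitals mark all cysteine and histidine codons in a reading frame without a stop codon.
ING1 probe: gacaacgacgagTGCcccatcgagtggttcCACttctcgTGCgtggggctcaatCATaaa
ING2 probe: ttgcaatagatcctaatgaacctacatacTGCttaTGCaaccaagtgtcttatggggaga
The longest run of identical bases that the ING1 and ING2 probes shared was 6 bases, on either strand. That of ING3 shared at most 6 bases with any other ING probe. The longest run between any pair was 9 bases, between ING4 and INGX, an ING1-like pseudogene with a probe of its own. The INGX probe was not well above background in either channel of any array.

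The quality of the arrays followed the dye orientation. Between 5941 and 7403 gene probes were well above background in a channel of arrays 1 and 2, and between 8982 and 9515 in a channel of arrays 3 and 4. Across probes, the normalized ratios of the Cy5 arrays correlated with each other at 0.81 and those of the Cy3 arrays at 0.94, while a Cy5 and a Cy3 array correlated at -0.29 to -0.12. The quality of the arrays and the dye therefore cannot be told apart. Of the erythroid markers 8 of 10 on the array were well above background in both channels of all arrays, GATA1 and KLF1 among them, and so were CD79A and LYZ, which mark other blood cells. In the fit over all probes 6 of the 10 erythroid markers fell with treatment (limma adjusted p under 0.05), and their part in the ratios of the ING genes was not tested. The fit (limma with a treatment and a dye term) covered 8852 probes, all 5 ING probes among them. The methods state that samples were collected in quadruplicate, but neither they nor the labels tie an array to a culture of its own, so the errors and p-values measure the spread between these arrays, which may be technical.

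ING3 had the highest ratio in the family. Arrays 1 to 4 gave log2 ratios of 0.02, 0.63, 0.94 and 1.51 for this gene. All 4 values were above 0, but array 1 was nearly level with the control cells. The mean was 0.78 ± 0.62 (SD, n = 4 arrays), a 1.71-fold higher level, and 3.03% of all tested probes had a ratio at least as high. Before normalization the spot signals differed in the same direction, with array 2 ahead of array 3. On array 1 the ING3 spot had a mean signal of 8243 for treated and 7712 for control cells. These signals were 15596 and 6614 for array 2. Array 3 had 9201 and 4446, and array 4 had 13700 and 5160. The treated channel was thus the brighter one on every array, with local backgrounds of 61 to 73.5, and the spot was well above background in both channels throughout. With any single array left out, ING3 kept a log2 ratio between 0.62 and 0.93.

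**Figure D1:**
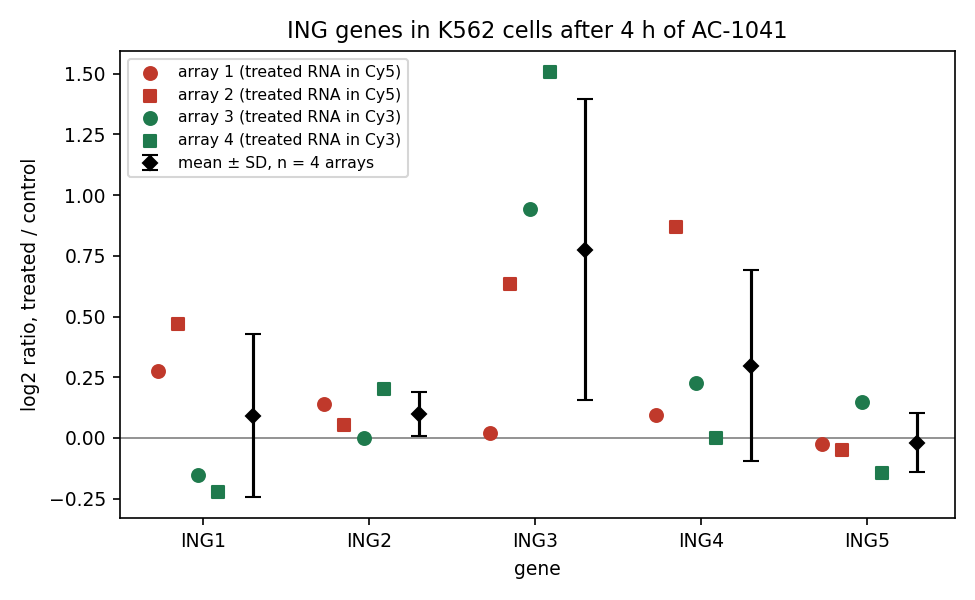
Log2 treated over control ratio in K562 cells (vertical axis) for each ING gene (horizontal axis). Red points are arrays with the treated RNA in Cy5, green points those with it in Cy3, and the black diamond with its bar is the mean ± SD over 4 arrays; ING3 runs from 0.02 to 1.51 and ING1 lies above 0 on the red and below 0 on the green arrays.

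ING4, the subunit of the HBO1 complex, came next. Its log2 ratios were 0.10, 0.87, 0.23 and 0.00 on arrays 1 to 4, with a mean of 0.30 ± 0.39 (SD, n = 4). The high value came from array 2, the only array on which the control channel of this probe was not well above background, with signals of 2782 in treated and 1090 in control cells. Without array 2 the log2 ratio of ING4 was 0.10, and without array 1 it was 0.49.

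ING1 and ING2, the subunits of the deacetylase complex, had like means and unlike patterns. ING1 gave log2 ratios of 0.28 and 0.47 on the Cy5 arrays and of -0.15 and -0.22 on the Cy3 arrays. Its mean of 0.09 ± 0.33 (SD, n = 4) thus joined arrays on which it was higher in treated cells with arrays on which it was lower. ING2 gave 0.14, 0.05, 0.00 and 0.20 on arrays 1 to 4, with a mean of 0.10 ± 0.09 (SD, n = 4). This was the narrowest spread in the family, although its signals before normalization were 9617, 13309, 8088 and 9869 in the treated channel of arrays 1 to 4 against 8243, 8415, 7646 and 9351 in the control channel.

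ING5, the subunit shared by the HBO1 and MOZ/MORF complexes, had spot signals of 491 to 951 and was well above background on arrays 3 and 4 only. Its log2 ratios were -0.03 and -0.05 on the Cy5 arrays and 0.15 and -0.14 on the Cy3 arrays. The mean was -0.02 ± 0.12 (SD, n = 4), and the arrays lay on both sides of 0.

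As a description, the fit over all probes (threshold an adjusted p of 0.05) called 1 of the 5 members, ING3, with a higher ratio, and none with a lower one. Of all tested probes 24.3% were higher and 13.0% lower by this rule, with 65.2% of the called probes higher (79.9% with median centring in place of loess). Because this contrast chose the family, nothing is read from the count. A log2 ratio above 0 on all 4 arrays was seen for 3 members, ING2, ING3 and ING4, and for 16.7% of the tested probes with 4 values. No member was below 0 on all 4 arrays, against 9.19% of these probes. For ING2 and ING4 the lowest of these values was 0.00.

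The dye term is the mean log2 ratio of the Cy5 arrays minus that of the Cy3 arrays, divided by 2. It is another contrast than that of the treatment. It was past an adjusted p of 0.05 for 58.2% of all tested probes and for 2 of the 5 ING probes, ING1 and ING3. For ING3 the mean log2 ratio was 0.33 on the Cy5 arrays and 1.22 on the Cy3 arrays, a 1.25-fold and a 2.34-fold level (dye term -0.45 ± 0.12 (SE), limma adjusted p = 0.012). For ING1 it was 0.37 on the Cy5 arrays and -0.19 on the Cy3 arrays (dye term 0.28 ± 0.07 (SE), limma adjusted p = 0.0080). The direction of ING1 therefore turned with the dye. That of ING3 did not, but its raised ratio on these arrays chose the family, so nothing is read from this. Both Cy3 ratios of ING3 lay above both Cy5 ratios, as for 42.0% of tested probes, and both Cy3 ratios of ING1 lay below them, as for 38.4%. The dye terms of ING2, ING4 and ING5 had limma adjusted p-values of 0.98, 0.20 and 0.83. Without array 4 neither ING1 (limma adjusted p = 0.085) nor ING3 (limma adjusted p = 0.12) was past the threshold, and ING1 was not without array 3 (limma adjusted p = 0.054). ING4 passed it only without array 1, at a limma adjusted p of 0.00028.

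**Figure D2:**
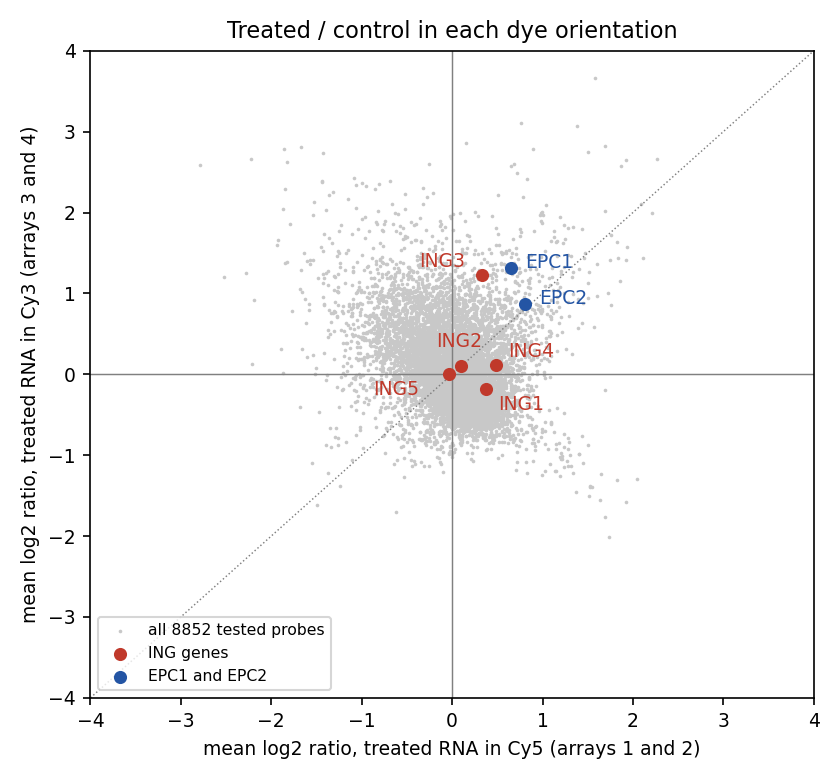
Mean log2 treated over control ratio on the Cy5 arrays (horizontal axis, arrays 1 and 2) against that on the Cy3 arrays (vertical axis, arrays 3 and 4). Grey points are all 8852 tested probes, red points the ING genes and blue points EPC1 and EPC2, and the dotted line marks equal ratios; ING3 (0.33 and 1.22) lies above the line and EPC2 (0.80 and 0.87) close to it.

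The genes of the complexes in which ING proteins work were then compared. Their ratios did not enter the choice of the family, but the lists were chosen with earlier results of these data known. Of 41 such genes 31 were on the array and 28 could be tested. The largest changes were those of EPC1 and EPC2, the enhancer of polycomb proteins, which hold ING3 and the acetyltransferase together in the NuA4-TIP60 complex. EPC1 gave log2 ratios of 0.77, 0.52, 1.19 and 1.43 on arrays 1 to 4. Its mean was 0.98 ± 0.41 (SD, n = 4), a 1.97-fold rise (SE 0.076, limma adjusted p = 5.6e-05). EPC2 gave 0.70, 0.91, 0.78 and 0.96 on arrays 1 to 4, with a mean of 0.84 ± 0.12 (SD, n = 4), a 1.78-fold rise (SE 0.072, limma adjusted p = 9.2e-05). Both genes were higher in treated cells on each array, and all of their spots were well above background. EPC1 passed the test of the dye term (limma adjusted p = 0.0058) and EPC2 did not (limma adjusted p = 0.72). With any single array left out, the treatment ratio had limma adjusted p-values of at most 0.0027 for EPC1 and 0.0043 for EPC2. Without the dye term they were 0.081 and 0.055.

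In the NuA4-TIP60 list 4 of 12 tested genes rose and 1 fell. The 41.7% called was near the 37.4% of all tested probes, of which 24.3% were called higher and 13.0% lower. TRRAP, a large scaffold that binds transcription activators, had a log2 ratio of 0.31 ± 0.17 (SD, n = 4; limma adjusted p = 0.0070) and was higher on all 4 arrays. RUVBL1, an ATPase of the complex, fell by 0.33 on the log2 scale (SD 0.12, n = 4; limma adjusted p = 0.0055) and was lower on all 4 arrays. With median centring it had -0.19 and was not called (limma adjusted p = 0.11). MORF4L2, also a subunit of the complex, was called higher at 0.28 ± 0.85 (SD, n = 4, limma adjusted p = 0.015). However, it was lower in treated cells on arrays 1 and 2 and higher on arrays 3 and 4. It was not called with median centring (log2 ratio 0.16, limma adjusted p = 0.19). KAT5, the TIP60 acetyltransferase itself, had a log2 ratio of 0.07 ± 0.31 (SD) and did not pass the test, and EP400 with -0.07 ± 0.39 (SD) did not either. The list had a median log2 ratio of 0.05, against 0.02 over all tested probes.

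In the SIN3-HDAC list 3 of 13 tested genes rose and 2 fell. The 38.5% called was near the 37.4% of all tested probes. SAP130 had the highest log2 ratio, 0.44 ± 0.10 (SD, n = 4; limma adjusted p = 0.0014), with values from 0.31 to 0.54 on the arrays. HDAC2, a histone deacetylase, fell by 0.42 on the log2 scale (SD 0.19, n = 4; limma adjusted p = 0.0035) and was lower on all 4 arrays. The related deacetylase HDAC1, with a value on 3 arrays, had a log2 ratio of -0.22 and did not pass the test (limma adjusted p = 0.077). The other calls rested on ratios of opposite sign in the dye orientations. SIN3A, the scaffold that gives the complex its name, had a mean log2 ratio of 0.67 on the Cy5 and -0.15 on the Cy3 arrays, and was called higher (limma adjusted p = 0.017). SIN3B was called lower (limma adjusted p = 0.011) from means of 0.12 and -0.70 on these arrays, and was not with median centring (log2 ratio -0.18, limma adjusted p = 0.11). SAP30 was called higher (limma adjusted p = 0.012) from means of -0.48 and 1.17.

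In the list of the HBO1 and MOZ/MORF complexes 3 of 10 genes could be tested. KAT7, the HBO1 acetyltransferase, which acts with ING4 and ING5, had log2 ratios of 0.57, 0.08 and 0.21 on arrays 2 to 4, its spot on array 1 being marked as an outlier. It was called higher, at 0.36 (SE 0.085, limma adjusted p = 0.015), and was not with the outlier spot kept (limma adjusted p = 0.065), with processed signals (limma adjusted p = 0.064) or with the series table (limma adjusted p = 0.065). JADE1 and JADE3, scaffolds of this complex, had log2 ratios of -0.02 and 0.11 and did not pass the test.

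**Figure D3:**
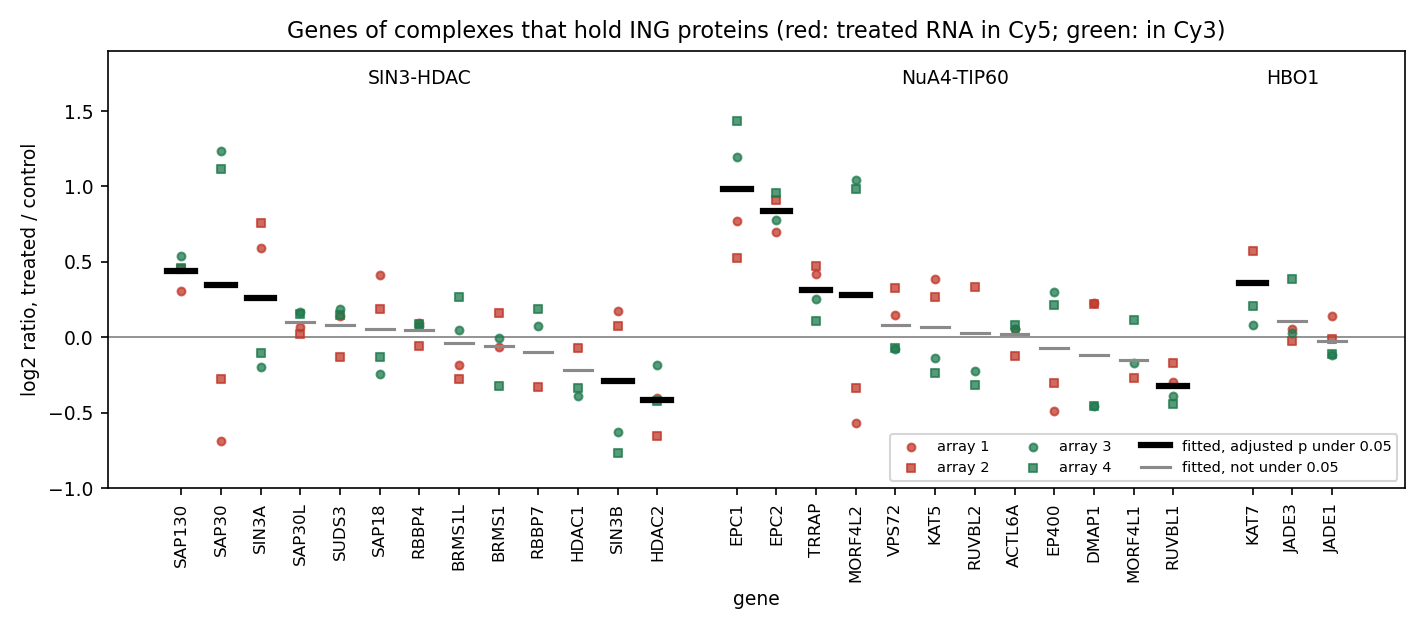
Log2 treated over control ratio (vertical axis) for the tested genes of 3 kinds of complex that hold ING proteins (horizontal axis). Points are arrays (red, treated RNA in Cy5; green, in Cy3) and bars are fitted log2 ratios, black where the limma adjusted p was under 0.05; EPC1 and EPC2 stand highest at 0.98 and 0.84, and the arrays of SAP30, SIN3A and MORF4L2 lie on both sides of 0.

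Together 8 of the 28 tested partner genes were called higher and 3 lower, which is 39.3% of them, against 37.4% of all tested probes. The share called was thus near that of all probes. Of the 11 called, 6 went the same way on all 4 arrays: EPC1, EPC2, TRRAP and SAP130 higher, HDAC2 and RUVBL1 lower. These are 54.5% of the called partners, near the 51.1% of all called probes. Over all tested probes 13.0% were called and higher on all arrays, and 6.13% were called and lower on all arrays. Without array 3 the partners called numbered 3 higher and 1 lower, and without array 4 they numbered 3 and 0. Over all probes 1241 were called higher and 439 lower of 8011 tested without array 3, and 1008 and 283 of 7997 without array 4. The main fit called 2155 and 1152 of 8852. Without the dye term no partner was called, and of all 8937 probes tested 52 were called higher and 4 lower.

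The mark that ING proteins bind is set and removed by other enzymes. Of 12 tested genes for H3 lysine 4 methylation 3 were called higher and 1 lower, which is 33.3%, near the 37.4% of all tested probes. KDM5B, a demethylase of this mark, had the largest ratio, 0.34 ± 0.28 (SD, n = 4; limma adjusted p = 0.0039), and was higher on all 4 arrays, with values of 0.58 and 0.59 on arrays 1 and 2 and of 0.12 and 0.07 on arrays 3 and 4. KDM1A, also a demethylase, fell by 0.23 on the log2 scale (SD 0.25, n = 4, limma adjusted p = 0.036). Its means were -0.04 on the Cy5 and -0.42 on the Cy3 arrays, and on array 2 it was 0.06. CXXC1 and RBBP5, subunits of the methyltransferase complexes, were called higher at 0.31 (limma adjusted p = 0.013) and 0.22 (limma adjusted p = 0.048), but their orientations differed in sign, with means of 0.70 and -0.09 for CXXC1 and of -0.35 and 0.80 for RBBP5. With the processed signals of the scanner software RBBP5 had a log2 ratio of 0.013 (limma adjusted p = 0.90) and CXXC1 one of 0.26 (limma adjusted p = 0.079), and RBBP5 also lost its call without background subtraction, without the filter on dim probes and with outlier spots kept. KDM1A lost its call with median centring (log2 ratio -0.16, limma adjusted p = 0.19). The median of the list was 0.06. Without array 3 or without array 4 none of these genes was called higher or lower. Over all probes 1241 were called higher and 439 lower of 8011 without array 3, and 1008 and 283 of 7997 without array 4. Without array 1 the list held 6 higher and 0 lower, and over all 8812 probes 2590 were higher and 1469 lower.

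Among 13 tested genes of the PHF series, which also code for PHD finger proteins, 2 rose and 2 fell. The 30.8% called lay near the 37.4% of all tested probes. PHF3 had a log2 ratio of 0.40, 0.78, 0.82 and 1.06 on arrays 1 to 4, with a mean of 0.77 ± 0.27 (SD; limma adjusted p = 0.00029). PHF20L1 had a mean of 0.54 ± 0.08 (SD, n = 4; limma adjusted p = 0.00051), and both genes were higher on all 4 arrays. PHF13 fell by 0.30 on the log2 scale (SD 0.04, n = 4; limma adjusted p = 0.0072) with nearly the same value on each array, from -0.36 to -0.27, and had -0.20 with median centring (limma adjusted p = 0.086). PHF19, a polycomb accessory protein, fell by 0.26 (SD 0.36, n = 4; limma adjusted p = 0.019), with means of 0.04 and -0.57 in the orientations. Without array 3 or array 4 no PHF gene was called lower, while over all probes 439 of 8011 and 283 of 7997 were.

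The genes whose ratios on the 4 arrays lay nearest to those of ING3 were sought among 4832 probes well above background in both channels of all arrays. By Euclidean distance over the 4 log2 ratios they were GADD45B (0.23), ELF2 (0.35), RNF111 (0.42), ZNF700 (0.46) and ZNF529 (0.48), while the median distance of all these probes was 1.97. GADD45B, a stress-inducible gene, had log2 ratios of 0.21, 0.61, 1.03 and 1.43 on arrays 1 to 4. The named genes were picked for the smallest distances, so their lying below the median was fixed in advance. The likeness rests on 4 arrays that share their dyes, and no test was made of it.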

How the data were processed

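Each of 4 two-colour arrays held RNA of treated and of control K562 cells. The authors deposited the scanner output, with an intensity per spot and channel and its local background, from Feature Extraction 9.5.1.1 with positions on hg18. The deposited files also hold processed intensities, corrected for background and dye, and their log10 ratio, which the authors' table of the series holds too, turned to read treated over control. From 99.9% to 100% of its values lay within 0.001 of the log10 ratio of the array.

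The normexp correction for background (offset 50) used every spot. Loess (span 0.3) then normalized each array with control spots given no weight, and outlier spots were dropped. A probe was tested if, on 2 or more arrays, 1 or both channels were well above background. It also needed a value left on more than 2 arrays, with both dye orientations among them. These probes were fitted with limma 3.58.1 in R 4.3.3, with treatment and dye terms and Benjamini-Hochberg adjustment over all probes tested. Each listed gene found had 1 probe. RefSeq accessions (GRCh38.p14, names only) named 12002 of 14297 probes. Tested on simulated data for this comparison (8852 probes), the fit found 90.5% of 200 probes given a log2 change of 1. The simulated noise was drawn independently for each probe and array. Smaller changes, such as most of those named above, were not simulated.

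The members, lists and tests were chosen with earlier results of these data known. Named were all ING genes, up to 5 called genes per list by size of the ratio and the 5 genes nearest to ING3. One marker of other blood cells, and the count of that list, are not reported here. HDAC1, KAT5, EP400, JADE1 and JADE3 were named after their values were seen. The alternatives were no background subtraction, processed signals, the series table, median centring, other filters on dim probes, outlier spots kept, no dye term and each array left out. The number of arrays limits the precision.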

Additional observations from a re-analysis of the deposited data

How the results depend on the processing

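The fit used the pairing of treated and control RNA on each array, since both channels are read as 1 ratio. The arrays form 1 group, so no further pairing was used. The ratio of ING3 stayed above 0 in all settings run. With the processed signals and with the series table, the log2 ratio of ING5 was -0.21 and -0.21, the dye term of ING3 was -0.37 (limma adjusted p = 0.056) and -0.37 (limma adjusted p = 0.061), and 1 gene for H3 lysine 4 methylation was called higher in each. With median centring 2 ING genes were past the threshold, no H3 lysine 4 gene was called lower (0 in all) and 1 PHF gene was. Without the dye term 0 ING genes were past it. In the partner, H3 lysine 4 and PHF lists 0 genes were called in either direction, and over all 8937 probes 52 higher and 4 lower. This is because that fit counts the difference between the orientations as error. For the other changes the cause was not tested.

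With 1 array left out, log2 ratios ranged from 0.04 to 0.14 for ING1, 0.05 to 0.15 for ING2, 0.62 to 0.93 for ING3, 0.10 to 0.49 for ING4 and -0.09 to 0.05 for ING5, and 1 to 2 members were past the threshold (2 without array 1, where ING4 was added). The dye term ranged from 0.23 to 0.33 for ING1 and from -0.60 to -0.30 for ING3. Partners called higher numbered 3 to 8 and lower 0 to 4, H3 lysine 4 genes 0 to 6 and 0 to 2, and PHF genes 2 to 3 and 0 to 2. Over all probes the calls ranged as well, from 1008 to 2590 higher and from 283 to 1469 lower. Of the 19 named list genes 5 were no longer called with median centring (SIN3B, RUVBL1, MORF4L2, KDM1A and PHF13). Of the 18 that could be fitted, 12 were no longer called without array 3 and 13 without array 4. None of the 19 named list genes changed direction in the settings run.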
